A study of Mus musculus and Homo sapiens with 23 samples.

Results

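The genes described here are the non-coding RNA genes expressed in BV2, a mouse microglial cell line; microglia are the macrophages that live in the brain. They are the genes whose transcript rows carry a RefSeq non-coding identifier with an estimation status of OK in both RNA libraries, whose symbol is not that of a microRNA, small nucleolar RNA (snoRNA) or other small RNA gene and has no coding transcript row, and whose summed level reached an FPKM of 2 in at least 1 library. FPKM, fragments counted relative to transcript length and sequencing depth, is a level per length, so levels of different genes can be set side by side. This is less certain for short genes, where a high value can rest on few fragments, and for copies that can share fragments. Of 997 non-coding genes measured by this rule, 128 reached the level and are called members below. The tables held 20974 named genes in all, and 8709 coding genes reached the same level. The members were chosen by the same values that are compared between the libraries, so their levels and differences are a description and are not tested.

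The series compared chromatin marks, among them acetylation of histone H2B at lysine 20, across cell types and across the change of state of microglia on lipopolysaccharide (LPS), a bacterial cell wall component that macrophages sense as a danger signal. It lists 23 samples, of which the 2 RNA libraries are used here and 21 chromatin samples were not analysed here. One RNA library came from BV2 cells without stimulation and the other from BV2 cells given LPS for 3 h. The labels name no genetic change for either culture, and BV2 itself is a line made by transformation with viral oncogenes, not primary microglia. With 1 library per group there is no replicate, so every difference below compares these 2 libraries and carries no p-value. An interval after a level is the 95% interval deposited with that value, which covers counting and the assignment of fragments and not the spread between cultures.

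Non-coding RNAs of this class are transcribed and spliced much like messenger RNAs but act, where an action is known, as RNA. Some stay in the nucleus and organise bodies or chromatin, such as Malat1 in speckles, Neat1 in paraspeckles and Xist on the inactive X chromosome. Others are hosts whose introns are cut into snoRNAs, the guides of ribosomal RNA modification, while their spliced exons are often short-lived. In macrophages, signalling from the LPS receptor through NF-kB and interferon is known to switch on a further set, several of them next to immune genes.

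The deposited intervals imply 13790000 fragments without stimulation and 16910000 after LPS, summed over rows with status OK. Of 10 microglial marker genes, 9 were measured, at 3.19 to 4128 FPKM without stimulation and 3.88 to 3064 FPKM after LPS. Of 31 markers of lymphocytes, neurons, glia of other kinds, fibroblasts and endothelium, 21 were listed at 0 in both libraries and the highest stood at 0.457 and 0.394 FPKM. The 6 LPS response genes checked (Tnf, Il6, Il1b, Cxcl10, Nfkbia and Ccl5) were all higher in the LPS library, by 5.75 to 10.10 on the log2(FPKM + 1) scale. The name of long non-coding RNAs covers 91 of the 128 members by RefSeq biotype. A further 33 are transcribed pseudogenes, and the remaining members are Rmrp, Rpph1, the small ribosomal-type RNA Rn4.5s and the snoRNA gene Gm12238, so the members are called non-coding RNA genes here. Only 2 of them are shorter than 200 bases.

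Start-site sequence was read for the members on which the results turn, from RefSeq promoters of GRCm38.p6 that run from 250 bases before to 50 bases after each start. The table held 81 promoters of 72 members. The snoRNA hosts Snhg1 (chr19:8723237-8723536, plus strand), Snhg7 (chr2:26640195-26640494, minus strand), Snhg8 (chr3:123508287-123508586, minus strand) and 1110038B12Rik (chr17:34952419-34952718, minus strand) are shown because each holds a TATAAA match close upstream of its start. Capitals mark matches to TATAAA on either strand (TTTATA where it lies on the other strand) and, in Snhg8, also a match to the kB consensus.
Snhg1: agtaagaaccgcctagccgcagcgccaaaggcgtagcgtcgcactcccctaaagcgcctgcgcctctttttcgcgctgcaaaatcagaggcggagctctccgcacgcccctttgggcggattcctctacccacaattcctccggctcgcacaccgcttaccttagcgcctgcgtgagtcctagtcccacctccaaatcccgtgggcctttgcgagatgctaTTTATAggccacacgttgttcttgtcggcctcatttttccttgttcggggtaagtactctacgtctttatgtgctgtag
Snhg7: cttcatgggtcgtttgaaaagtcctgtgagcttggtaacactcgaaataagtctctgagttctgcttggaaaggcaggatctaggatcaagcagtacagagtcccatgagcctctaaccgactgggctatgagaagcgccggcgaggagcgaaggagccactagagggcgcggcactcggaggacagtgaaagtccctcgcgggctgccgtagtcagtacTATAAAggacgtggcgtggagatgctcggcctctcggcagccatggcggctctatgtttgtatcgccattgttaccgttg
Snhg8: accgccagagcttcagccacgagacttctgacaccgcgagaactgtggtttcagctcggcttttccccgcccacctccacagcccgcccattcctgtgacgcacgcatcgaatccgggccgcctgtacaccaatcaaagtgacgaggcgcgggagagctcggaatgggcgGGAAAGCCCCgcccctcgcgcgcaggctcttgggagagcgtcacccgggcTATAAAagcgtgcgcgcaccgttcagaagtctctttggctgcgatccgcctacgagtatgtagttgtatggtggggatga
1110038B12Rik: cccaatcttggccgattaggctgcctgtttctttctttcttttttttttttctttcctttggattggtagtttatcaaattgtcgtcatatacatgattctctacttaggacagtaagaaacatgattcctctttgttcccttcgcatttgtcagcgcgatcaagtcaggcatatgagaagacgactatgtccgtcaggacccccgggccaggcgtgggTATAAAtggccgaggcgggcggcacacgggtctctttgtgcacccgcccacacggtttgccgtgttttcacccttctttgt
The match begins 29 bases upstream of the start in Snhg1, 30 in Snhg7, 30 in Snhg8 and 31 in 1110038B12Rik, which has a second, overlapping start in the table. TATAAA on either strand stood in 7 of the 15 promoters of snoRNA hosts (46.7%), against 13 of the 81 member promoters (16.05%) and 13.6% of all 32851 promoters of the table. Counting only matches that begin 40 to 20 bases upstream, a window chosen after the matches were seen, the shares were 5 of 15 promoters (33.3%), 6 of 81 (7.41%) and 2.50% of all. These are descriptions of letters in a window, and the promoters of 1 gene overlap.

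Morrbid (chr2:128429302-128429601, minus strand) and 6530402F18Rik (chr2:29252944-29253243, minus strand) are shown as members that were higher after LPS and hold a match to a motif of an LPS-responsive factor. Capitals mark TGANTCA, the AP-1 motif, in Morrbid and the kB consensus of NF-kB in 6530402F18Rik.
Morrbid: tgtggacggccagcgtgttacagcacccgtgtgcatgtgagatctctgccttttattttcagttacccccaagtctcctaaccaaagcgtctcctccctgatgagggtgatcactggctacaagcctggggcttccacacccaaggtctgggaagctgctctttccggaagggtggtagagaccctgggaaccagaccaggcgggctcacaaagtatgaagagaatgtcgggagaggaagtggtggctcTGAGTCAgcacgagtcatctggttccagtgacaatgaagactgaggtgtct
6530402F18Rik: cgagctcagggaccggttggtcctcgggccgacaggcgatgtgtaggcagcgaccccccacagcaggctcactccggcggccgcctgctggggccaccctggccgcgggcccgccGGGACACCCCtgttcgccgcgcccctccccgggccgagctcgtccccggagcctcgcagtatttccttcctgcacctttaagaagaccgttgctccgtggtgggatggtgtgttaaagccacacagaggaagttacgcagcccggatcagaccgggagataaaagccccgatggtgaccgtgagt
Promoters in the table covered 6 of the higher members, with 7 promoters, where G530011O06Rik is counted on both X and Y. Mx1, H2-K2, Gm8989, Gm5424, Gm5434 and Gm12238, also higher, had no promoter there. The motif counts therefore say nothing about them. Of these 7, 1 held the AP-1 motif, 1 the kB consensus and 0 the interferon-stimulated response element searched as GAAA, any 2 bases and GAAA. Of 25 promoters of lower members, 1 held the AP-1 motif, 2 the kB consensus and 1 the response element. Such matches are therefore not particular to the higher members. Over all promoters of the table the shares with these motifs, on both strands, were 7.81%, 8.46% and 3.44%, and over the member promoters 4.94%, 6.17% and 3.70%. The promoter of U90926 held none of them. The median number of CpG pairs per window was 19 over the member promoters and 7 over all promoters. All promoters include those of genes not expressed in BV2, and expressed coding genes were not counted alone. The difference is therefore not read as a trait of non-coding members.

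Between the libraries the non-coding RNA genes were more often lower than higher after LPS. A gene is called higher or lower where log2(FPKM + 1) differs by at least 1 either way (LPS minus unstimulated), that is, by 2-fold after adding 1, which understates the change of genes with low levels. By this rule 12 members were higher and 40 lower, beside 9.27% higher and 13.2% lower over all 8837 genes that reached the same level. The share of coding genes depends on the scaling, at 7.92% higher and 22.0% lower in TPM and 11.4% higher and 8.07% lower after median scaling, where 12 and 13 members were higher and 52 and 28 lower. The deposited intervals did not overlap for 11 of the 12 and 39 of the 40. The median change of the members was -0.50, beside -0.21 over the 8709 coding genes. The summed level of the members went from 3933 to 2707 FPKM, or from 0.716% to 0.415% of all FPKM. In bulk RNA, fewer cells that express a gene and less of its RNA per cell cannot be told apart. Part of this count is fixed by the choice of members, since 10 reached the level only in the LPS library and 33 only in the unstimulated library. Of the 85 members at or above the level in both, 3 were higher and 18 lower (21.2%), where 7272 coding genes gave 7.54% higher and 9.16% lower. Among 29 members at 20 FPKM or more in the unstimulated library, 0 were higher and 12 lower, and among 2868 coding genes of that level 5.54% were higher and 9.24% lower.

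**Figure D1:**
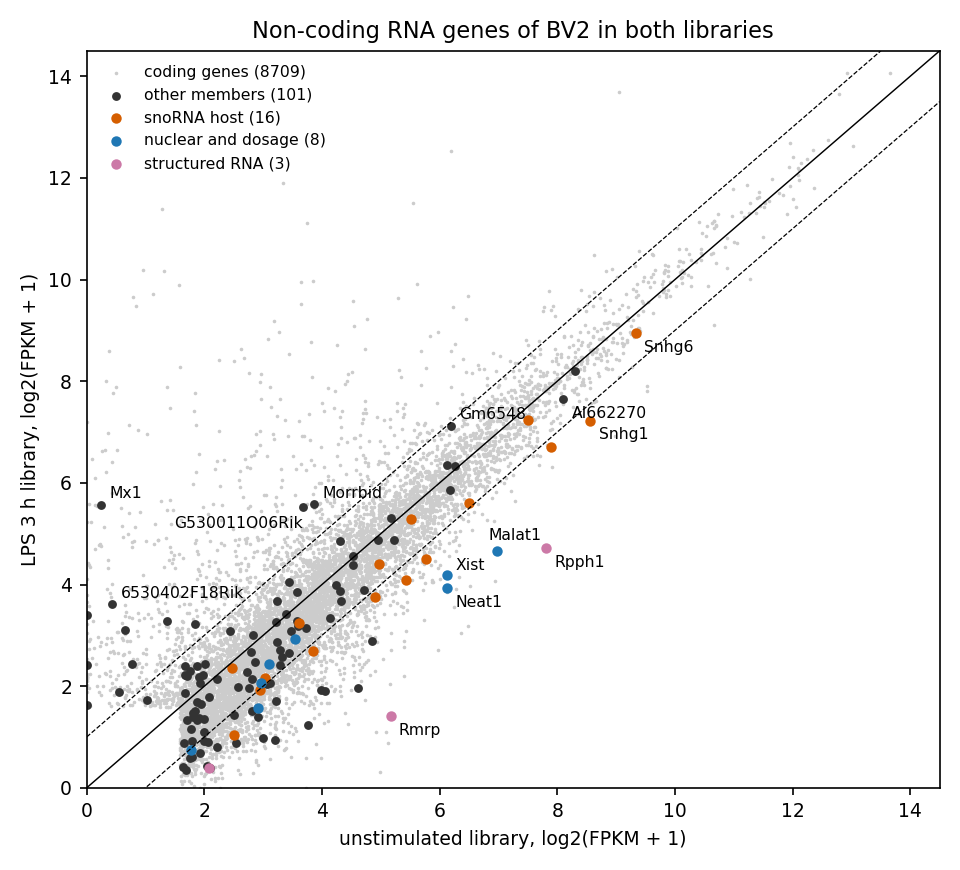
Level of each gene in the unstimulated library (x axis) and the LPS library (y axis), both as log2(FPKM + 1), with 8709 coding genes in grey and the 128 members in black or by class. The solid line marks equal levels and the dashed lines a change of 1. Of the 128 members, 40 lie below the lower dashed line and 12 above the upper one.

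Counts by kind of RNA were as follows. Of the 91 members with the lncRNA biotype, 6 were higher and 33 lower (median change -0.62). Of the 33 transcribed pseudogenes 5 were higher and 5 lower, 15.2% each (median -0.25). Over all genes at the level 9.27% were higher and 13.2% lower, so the pseudogene share of lower genes was near the general 1. Of 63 lncRNA members at 2 FPKM or more in both libraries, 2 were higher and 16 lower (25.4%), beside 9.16% lower of such coding genes. Groups were taken from lists of known RNAs where possible and from the form of the symbol otherwise. The median change was -3.09 for 3 structured RNAs, -1.18 for 8 RNAs of the nuclear and dosage list and -0.96 for 16 snoRNA hosts. Rn4.5s, with a change of -0.095, is not on the structured list and is counted with the other named genes. The median was -0.45 for 47 genes with a Rik symbol and 0.03 for 19 genes with a Gm number. It was -1.54 for 3 immune and stress RNAs and -0.46 for 17 other named genes. For 6 symbols ending in os or as it was -0.54, and for 9 ending in ps -0.30. These groups differ in size, and their difference was not tested.

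**Figure D2:**
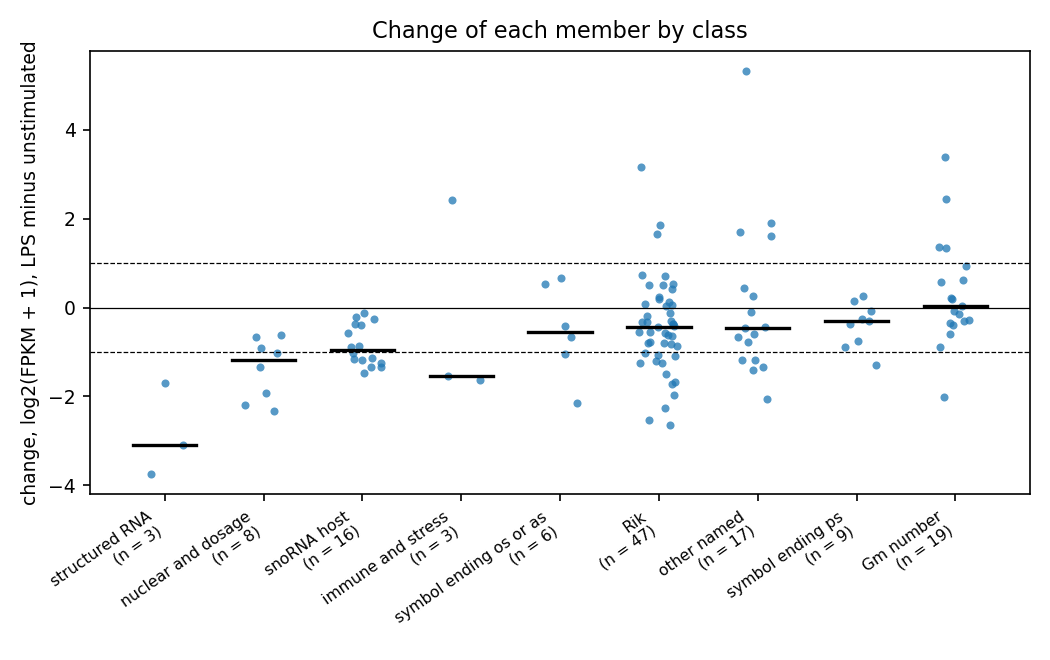
Change of each member, log2(FPKM + 1) of the LPS library minus the unstimulated library, by class, with 1 point per gene and a bar at the class median. Points are spread sideways for visibility. All members of the structured RNA (3), nuclear and dosage (8) and snoRNA host (16) classes lie below 0 on the deposited scale, where the nuclear class also stays below 0 under the other scalings tried and Snhg16 of the snoRNA hosts does not.

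On the log2(FPKM + 1) scale the largest falls among the members were those of the catalytic RNAs Rmrp and Rpph1. Rpph1, the RNA subunit of RNase P, which trims the leading end of transfer RNAs, lies at chr14:51427122-51427446 of mm9. It stood at 223 FPKM (205 to 241) without stimulation and 25.4 FPKM (19.4 to 31.4) after LPS, a level 8.78-fold lower (95% interval 6.88 to 11.2). Its intervals are far apart, but they do not cover differences in library preparation. No source used here says whether polyadenylated RNA was selected, and the bearing of this on these short RNAs was not tested. The nearest coding gene of Rpph1, Parp2, 175 bp away, a sensor of DNA breaks, was also lower, at 33.2 and 14.8 FPKM. Rmrp, the RNA of the RNase MRP that cuts ribosomal RNA precursors, stood at 34.9 FPKM and 1.66 FPKM, the latter resting on 3 implied fragments, so no ratio is given. Vaultrc5, a vault RNA, was at 3.21 and 0.305 FPKM, the latter from 1 fragment. Rn4.5s, a short RNA of rodents with 10 rows summed, was at 314 and 293 FPKM, with overlapping intervals (256 to 372 and 239 to 348). Of the 17 listed structured RNAs 7 had a row, and 3 reached the level. Terc, the telomerase RNA, was below it at 1.65 and 0.224 FPKM.

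Of 18 RNAs on the nuclear and dosage list, 16 were measured and 8 reached the level. The list covers RNAs of nuclear bodies, X-chromosome dosage and imprinting, but it also holds Pvt1, Norad and Tug1, so its name is loose. By the size rule 5 of the 8 were lower and 0 higher, beside 13.2% lower and 9.27% higher over all genes at the level. Malat1, at chr19:5795690-5802671, an abundant RNA of nuclear speckles, stood at 125 FPKM (123 to 127) and 24.3 FPKM (23.5 to 25.1), 5.15-fold lower (4.97 to 5.33). Neat1, the scaffold of paraspeckles, lies in the same region at chr19:5842302-5845478, a deposited locus that covers a short form of the gene. It stood at 69.0 FPKM (66.9 to 71.0) and 14.3 FPKM (13.4 to 15.2), 4.83-fold lower (4.51 to 5.17). Frmd8, the nearest coding gene of Neat1, was at 5.59 and 9.13 FPKM, within the size rule. Xist, which coats and silences an X chromosome, was at 68.6 FPKM (67.8 to 69.5) and 17.3 FPKM (16.9 to 17.7), 3.97-fold lower (3.86 to 4.07). All intervals of these 3 RNAs are separate by wide margins.

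Airn, an imprinted RNA transcribed across Igf2r on the opposite strand and known to silence it on the paternal copy, stood at 6.49 FPKM (4.76 to 8.23) and 1.96 FPKM (1.22 to 2.82). Igf2r itself, the receptor for mannose 6-phosphate, was at 1.87 and 1.92 FPKM. So the antisense RNA was 3.31-fold lower (2.00 to 5.46) while the overlapped coding gene did not pass the size rule. No source used here says whether counting used strand, so fragments of overlapping genes, here and below, cannot be told apart. Pvt1, the long neighbour of the proto-oncogene Myc, was at 2.41 and 0.680 FPKM (change -1.02), while Myc, 47626 bp away, was higher, at 0.518 and 4.52 FPKM (change 1.86). Norad, which binds Pumilio proteins, was at 6.83 and 3.15 FPKM (change -0.91). Tug1 was at 7.57 and 4.43 FPKM (change -0.66). Firre, an X-linked nuclear RNA, was at 10.7 and 6.65 FPKM (change -0.61). The last 3 stayed inside the size rule, though their intervals did not overlap. All 8 were below 0 on the deposited scale and after rescaling to TPM, median scaling or quantile normalisation. These scalings left 6, 4 and 4 of them lower by the rule, beside 22.0%, 8.07% and 8.97% of the coding genes. With a pseudocount of 5, 3 of the 8 were lower by the rule. Among the listed RNAs below the level, Ftx was at 1.28 and 0.104 FPKM, Jpx at 0.648 and 0.327 FPKM and Kcnq1ot1 at 0.455 and 0.0344 FPKM, whereas Meg3, Miat, Rmst, Tsix and Cdr1os were listed at 0 in both.

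The snoRNA hosts were the largest group of abundant members. Of 24 listed hosts 18 had a row, and 16 reached the level; Snhg18 and Rian were listed at 0 in both libraries. Of the 16, 8 were lower by the size rule and 0 higher, beside 13.2% lower and 9.27% higher over all 8837 genes at the level. Their summed level was 1775 FPKM without stimulation and 1073 FPKM after LPS. All 16 were below 0 on the deposited scale and after rescaling to TPM, and 15 after median scaling or quantile normalisation, where Snhg16 turned. The count of lower hosts moved from 8 to 4 with median scaling or a pseudocount of 5 and to 10 in TPM. Of the coding genes, 8.07% were lower after median scaling and 22.0% in TPM.

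Snhg1, the host of Snord22 whose start region is printed above, lies at chr19:8797977-8800816 of mm9, 118 bp from Slc3a2 on the opposite strand. It stood at 377 FPKM (361 to 393) and 148 FPKM (139 to 158), 2.54-fold lower (2.35 to 2.74). Slc3a2, a heavy chain of amino acid transporters, went the other way, from 82.9 to 150.3 FPKM, within the size rule. 2410006H16Rik, which holds Snord49a, Snord49b and Snord65, was at 235 FPKM (222 to 248) and 103 FPKM (94.4 to 111), 2.29-fold lower (2.08 to 2.52). Snhg12, with Snora16a, Snora44, Snora61 and Snord99 inside, was at 41.9 and 16.1 FPKM, 2.61-fold lower (2.16 to 3.15). Snhg20 was at 53.2 and 21.7 FPKM, 2.46-fold lower (2.08 to 2.90). In these 4 hosts the deposited intervals are separate. Snhg7, the host of Snora17 and Snora43, was at 4.65 and 1.05 FPKM, 4.44-fold lower (2.43 to 8.13). Snhg8, the host of Snora24, was at 28.8 and 12.5 FPKM, 2.31-fold lower (1.92 to 2.77). Snhg4 was at 13.5 and 5.49 FPKM and Snhg10, the host of Scarna13, at 6.72 and 2.80 FPKM. Matr3, 3842 bp from Snhg4 and a protein of the nuclear matrix, was also lower (28.3 and 12.4 FPKM).

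The other 8 hosts did not pass the size rule. Snhg6, the host of Snord87 and the most abundant member, at chr1:9932106-9934199, was at 647 FPKM (623 to 671) and 490.3 FPKM (470 to 511). That is 1.32-fold lower (1.25 to 1.39). 1110038B12Rik, the host of Snord52, was at 181 and 150.3 FPKM. Epb41l4aos was at 89.4 and 47.9 FPKM (change -0.89) and Dancr, the host of Snora26, at 7.17 and 3.49 FPKM (change -0.86). Snhg3 was at 30.3 and 20.1 FPKM and Snhg17 at 11.2 and 8.43 FPKM. For these 6 the deposited intervals did not overlap. Snhg9, the host of Snora78, was at 44.6 FPKM (24.6 to 64.5) and 38.2 FPKM (20.2 to 56.2), and Snhg16, the host of Snord1a, Snord1b and Snord1c, at 4.57 FPKM (3.34 to 5.82) and 4.12 FPKM (2.82 to 5.43). For both the intervals overlapped. The TATAAA-bearing starts shown above therefore belong to hosts that were lower by the rule (Snhg1, Snhg7 and Snhg8) and to 1 that was not (1110038B12Rik). Taken by locus rather than by list, 13 members held a deposited snoRNA or scaRNA row, 8 of them lower and 0 higher, with a median change of -1.14; AA465934, around Snord7, is the addition, at 3.20 and 0.859 FPKM with overlapping intervals.

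**Figure D3:**
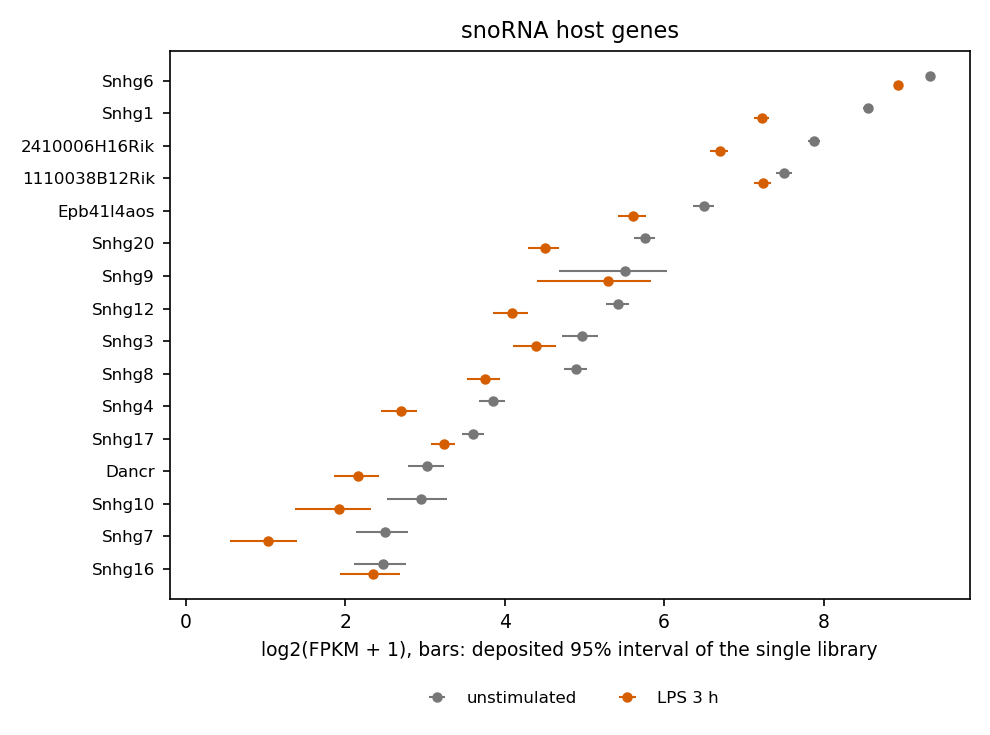
Level of the 16 snoRNA host genes as log2(FPKM + 1) in the unstimulated (grey) and LPS (orange) library, ordered by the unstimulated level, with the deposited 95% interval of each single library. All 16 orange points lie left of their grey points on this scale, although Snhg16 changes side after median scaling or quantile normalisation. The intervals overlap for Snhg9 and Snhg16.

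Of the remaining lower members, those with the largest changes follow, with their nearest coding genes. 5730408K05Rik, 133 bp from 1810009A15Rik on the opposite strand, was at 23.4 FPKM (18.6 to 28.3) and 2.89 FPKM (1.20 to 4.57), 8.12-fold lower (4.42 to 14.9). 1810009A15Rik, an abundant coding gene, was at 374 and 251 FPKM. 1600010M07Rik was at 12.6 and 1.37 FPKM, 9.21-fold lower (5.19 to 16.4), and its nearest coding gene Ipo7, a nuclear import receptor 11779 bp away, was at 26.4 and 12.4 FPKM. 2610507I01Rik, 86 bp from Mrpl55, was at 8.22 and 0.931 FPKM, 8.84-fold lower (6.73 to 11.6). Mrpl55, a protein of the mitochondrial ribosome, was at 26.0 and 21.3 FPKM, so this pair of close genes did not move alike in size. Hectd2os, which overlaps Hectd2, was at 15.6 and 2.75 FPKM, 5.67-fold lower (4.78 to 6.72). Hectd2 was at 1.09 and 0.428 FPKM. Rnf227, 626 bp from Chd3, was at 14.8 and 2.78 FPKM, and 5430416N02Rik, 4608 bp from Sec31a, at 27.8 and 6.37 FPKM. The pseudogene Gm5512, which overlaps Rmnd1, was at 6.99 and 0.965 FPKM. The intervals of each of these 7 members are separate.

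Lockd, an RNA 3567 bp downstream of the cell cycle inhibitor Cdkn1b on the same strand, was at 3.13 FPKM and 0.344 FPKM, the latter from 3 fragments. Cdkn1b was at 7.57 and 2.82 FPKM (change -1.17). D430020J02Rik, 241 bp from Ncapg2 and transcribed away from it, was at 6.57 FPKM (5.90 to 7.24) and 1.61 FPKM (1.29 to 1.94), 4.08-fold lower (3.27 to 5.08). Ncapg2, a condensin subunit, was at 6.65 and 1.12 FPKM (change -1.85). In both pairs the RNA and its coding neighbour were lower together. With U90926, described next, these are the 3 of 29 listed immune and stress RNAs that reached the level. Mx1 and Morrbid, both higher and described next, are not on this list. Of the 29, 13 had a row, among them Ptgs2os at 0 and 0.0485 FPKM and Mx2 at 0.00455 and 0.309 FPKM.

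Of the 12 members higher in the LPS library, the 11 with separate intervals are described first. Mx1, at chr16:97668642-97684513, is an interferon-induced antiviral GTPase that RefSeq lists as a transcribed pseudogene in the reference mouse strain. It stood at 0.183 FPKM (0.0659 to 0.299) and 46.6 FPKM (44.5 to 48.7), 255-fold higher (136 to 478). The unstimulated value rests on 9.79 implied fragments and the LPS value on 1951. Mx1 had the largest change of the members, and its nearest coding gene, Bace2, was listed at 0 in both libraries. H2-K2, a pseudogene of the class I histocompatibility region, was at 1.59 and 8.67 FPKM, 5.47-fold higher (3.89 to 7.68). Gm8989 was at 0.472 and 2.72 FPKM, 5.76-fold higher (3.59 to 9.24), and the closest coding gene, the interferon-inducible GTPase Gvin1, 107056 bp away, was at 3.06 and 16.6 FPKM. AW011738, 2466 bp from Isg15 on the opposite strand, was listed at 0 without stimulation and at 2.08 FPKM (1.70 to 2.46) after LPS, on 122 fragments. Isg15, an interferon-induced ubiquitin-like protein, went from 1.98 to 952 FPKM. How many of the fragments of AW011738 came from transcripts of Isg15 was not tested.

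Morrbid, a myeloid RNA that is known to act on its neighbour Bcl2l11, has 3 rows that share an end, the most abundant at chr2:128197844-128255087. Summed over the 3 it was at 13.6 FPKM (11.1 to 16.2) and 46.9 FPKM (42.3 to 51.5), 3.44-fold higher (2.80 to 4.23). Bcl2l11, which encodes the death-promoting protein Bim, 136116 bp from the closest of the 3 rows, was higher as well, at 5.28 and 14.3 FPKM. The start of Morrbid carries the AP-1 match printed above. G530011O06Rik, at chrX:166412975-166416849, overlaps the ubiquitin ligase gene Mid1 on the opposite strand and was at 11.8 FPKM (10.8 to 12.8) and 45.1 FPKM (43.2 to 47.0), 3.83-fold higher (3.49 to 4.20). Mid1 was at 3.33 and 9.14 FPKM. Both genes of this overlapping pair were higher. 6530402F18Rik, which carries the kB match printed above and overlaps Ntng2 on the same strand, was at 0.354 and 11.2 FPKM, 31.6-fold higher (22.2 to 45.1). Ntng2 stood at 0.270 and 1.12 FPKM, well below the RNA in the LPS library.

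U90926, an RNA known from LPS-treated macrophages, was listed at 0 in the unstimulated library and at 4.36 FPKM (2.82 to 5.90) in the LPS library, on 32 fragments. 4933412E12Rik, which starts 182 bp from Rab3ip and runs away from it, was at 0.696 and 4.39 FPKM, 6.31-fold higher (3.59 to 11.1), while Rab3ip was at 4.67 and 6.57 FPKM. The pseudogene Gm5424 was at 0.575 and 7.60 FPKM, 13.2-fold higher (8.08 to 21.6), and the pseudogene Gm5434 at 2.59 and 8.31 FPKM, 3.20-fold higher (2.46 to 4.18). Near copies of a pseudogene can share its fragments, so its level is uncertain. Gm12238, inside G3bp1, makes up the 12, but it rests on 1 fragment in the LPS library and its intervals overlap. The low-level members 4933412E12Rik, AW011738, Gm5434, Gm8989 and U90926 were no longer past the rule with a pseudocount of 5.

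**Figure D4:**
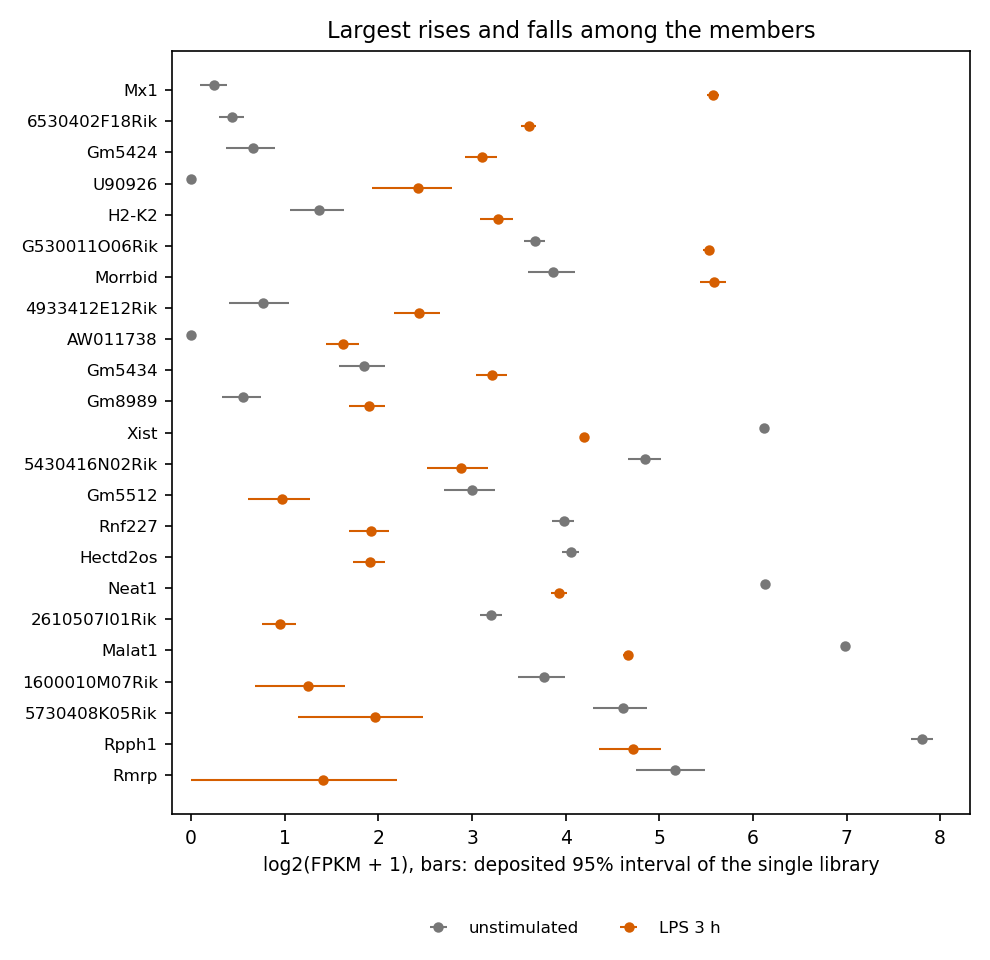
Level of the 11 members with the largest rises and the 12 with the largest falls as log2(FPKM + 1) in the unstimulated (grey) and LPS (orange) library, with the deposited 95% interval of each single library. Members with overlapping intervals are not drawn. U90926 and AW011738 are listed at 0 in the unstimulated library, and the LPS value of Rmrp rests on 3 fragments.

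The 10 members with the highest mean FPKM of both libraries held 62.7% of the members' summed FPKM without stimulation and 63.1% after LPS. They include the lower members Rpph1, Snhg1 and 2410006H16Rik, and those not yet described did not pass the size rule. AI662270, 8422 bp from the Schlafen gene Slfn3, was at 274 and 199 FPKM (change -0.46), and Slfn3 at 3.76 and 9.36 FPKM. 2810025M15Rik was at 75.3 and 79.1 FPKM with overlapping intervals, its ratio of 1.05 (0.982 to 1.12) leaving both directions. Gm6654, a pseudogene that overlaps Med21, was at 68.8 and 80.7 FPKM. Gm6548, 6 bp from Eif2ak2, the kinase that senses double-stranded RNA, was at 72.0 and 138 FPKM, 1.92-fold higher (1.84 to 2.01) and just inside the size rule, while Eif2ak2 was at 4.71 and 24.2 FPKM. Gm6548 passed the rule after median scaling.

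By position, 29 members overlapped a coding gene, 55 lay within 5 kb of one and 44 farther away. Of the overlapping members 3 were higher and 8 lower (median change -0.25), of those within 5 kb 3 and 20 (median -0.66), and of the farther ones 6 and 12 (median -0.42). The nearest coding gene of the 12 higher members was itself higher in 4 cases and lower in 0, and 9 of these 12 neighbours reached 2 FPKM in either library. For the 40 lower members the nearest coding gene was higher in 1 case (Myc), lower in 6 and within the rule in 33, and 29 of the 40 reached 2 FPKM. The others were too low to be called readily. Over all coding genes at 2 FPKM or more, 9.27% were higher and 12.9% lower. The 4 higher neighbours of higher members and the 6 lower neighbours of lower members all reached 2 FPKM. The totals to set beside these shares are therefore 9 and 29. For members within the rule, the nearest coding gene was higher in 7 cases, lower in 4 and within in 65. These counts were not tested. The lower pairs were Rpph1 with Parp2, 1600010M07Rik with Ipo7, D430020J02Rik with Ncapg2, Lockd with Cdkn1b, Snhg4 with Matr3 and 9330151L19Rik with Dnaaf2. Across members, the change of the member and of its nearest coding gene had a Spearman coefficient of 0.31 (n = 128), 0.47 over the 29 overlapping, 0.27 over the 55 within 5 kb and 0.10 over the 44 farther members. These coefficients describe genes of the same 2 libraries, and overlapping genes can share fragments.

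Strong coding changes also stood beside members that stayed inside the rule. Stx11, a syntaxin of immune cells, went from 0.516 to 34.6 FPKM, while B230208H11Rik, 16862 bp away on the same strand, went from 1.03 to 2.30 FPKM. Map3k8, a kinase of the LPS pathway, was at 2.51 and 8.96 FPKM, and 4833419F23Rik, 594 bp away, at 2.69 and 4.29 FPKM. Tnfsf9, a ligand of the TNF family, was at 14.4 and 47.2 FPKM, whereas Gm11110, which overlaps it, was at 3.65 and 3.43 FPKM. Add3 was lower, at 5.06 and 0.834 FPKM, beside 1700001K23Rik at 3.05 and 4.43 FPKM. Of 19 members that start within 1 kb of a coding gene's start and run away from it, 5 were lower and 1 higher. Of the 5 lower ones, 1 had a lower neighbour. Over all genes at the level 9.27% were higher and 13.2% lower. Strand was known for only 72 of the 128 members, so such pairs among the others were not counted. The pairs named in this paragraph were chosen after their values were seen.

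**Figure D5:**
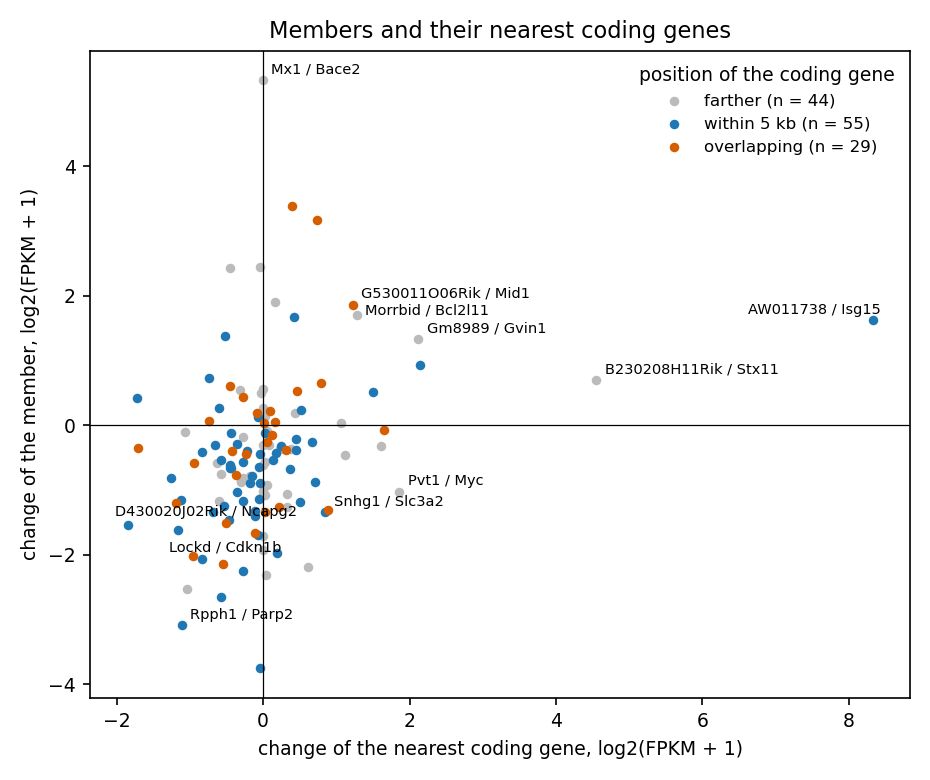
Change of each of the 128 members (y axis) against the change of its nearest coding gene (x axis), both as log2(FPKM + 1) of the LPS library minus the unstimulated library, coloured by position. AW011738 beside Isg15 lies far to the right, and Pvt1 beside Myc lies in the lower right field.

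Of the members that RefSeq names as copies, 7 could be set beside a measured gene of the parent symbol. Atp6v0c-ps2 was at 6.02 and 1.84 FPKM (change -1.30), while Atp6v0c, a subunit of the proton pump of lysosomes, was at 777 and 1440 FPKM. The deposited rows of this pair lie at the same place (chr17:24300832-24306340 and chr17:24300833-24306374 of mm9), so they are rows of 1 locus whose fragments can be shared. Whether a copy lies elsewhere in the genome was not examined. Ndufs5-ps was at 70.9 and 57.2 FPKM, and Ndufs5, a subunit of mitochondrial complex I, at 5.87e-05 and 2.89 FPKM. A complex I gene that reads close to 0 beside an abundant copy is a case where the assignment of fragments between copies is uncertain. Ubb-ps was at 34.9 and 38.7 FPKM against 307 and 421 FPKM of the ubiquitin gene Ubb. The copies Gpr137b-ps, Npm3-ps1, Rps15a-ps6 and Pisd-ps2 had changes of 0.27, -0.08, -0.25 and -0.75, beside 0.38, 0.07, -0.10 and 0.09 of their parents.

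Genes for proteins that bind, process or degrade these RNAs were counted in the same way, beside the 9.27% higher and 12.9% lower of all coding genes, and their counts are not read as a result. Of 11 counted genes of snoRNA particles 0 were higher and 1 lower (median change -0.39): Dkc1, the pseudouridine synthase of these particles, was at 62.2 and 25.3 FPKM. Of 9 paraspeckle proteins none passed in either direction (median 0.04), and Pspc1, a core one, was at 37.2 and 21.5 FPKM (change -0.76). Of 16 genes of the nuclear exosome and its adaptors, which degrade nuclear RNA, 0 were higher and 3 lower (median -0.55). These were Zfc3h1 at 3.40 and 0.571 FPKM, Exosc7 at 26.0 and 11.9 FPKM and Zcchc8 at 7.43 and 3.21 FPKM. Of 12 genes of nonsense-mediated decay, which degrades many spliced host RNAs, 1 was lower (Upf3b, 11.1 and 3.47 FPKM; list median 0.15), and of 9 microRNA processing genes 1 was lower (Ago2, 7.34 and 2.63 FPKM; list median -0.41).

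At the threshold of the rule, the members closest above an FPKM of 2 in the higher library were AW011738, given above, 2700099C18Rik at 2.13 and 0.324 FPKM and Chaserr at 2.14 and 0.846 FPKM. Chaserr overlaps Chd2, a chromatin remodeller it is known to restrain, which was at 2.05 and 1.36 FPKM. The genes closest below were Dleu2 at 1.99 and 1.25 FPKM, D030028A08Rik at 1.90 and 0.348 FPKM and 1810014B01Rik at 1.83 and 1.07 FPKM.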

How the data were processed

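The authors deposited 1 table per RNA library with an FPKM value, its lower and upper bound and a status for each of 28246 RefSeq transcript rows. Per the submitters' processing notes these came from Cufflinks on mm9; version, aligner, use of strand and any selection of polyadenylated RNA: not given in the sources used here. Per the labels' protocols reads were 76 bases long and the library kit was directional.

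Symbols, biotypes and strands came from a RefSeq table of GRCm38.p6 (27560 rows matched, 97.6%), and coordinates are the deposited mm9 loci, 1-based. Of 2310 non-coding rows, 93 were not OK in both libraries and 164 had no name. Rows were summed per symbol (28 members had several, and 3 had a row left out) and half-widths combined in quadrature. Implied fragments are the squared ratio of 2 × FPKM to the half-width; 67.5% of 5063 and 68.9% of 5151 low rows were whole within 0.05. Intervals of ratios combine both deposited intervals on the log scale, and ratios are not given where a value rests on 3 or fewer fragments. Strand was known for 72 members. Distances are from the closest row of a member. Members named are the 10 of highest mean FPKM, up to 12 rises and 12 falls with separate intervals, members of the 4 RNA lists and 3 genes either side of the threshold; any others were chosen after their values were seen. The nearest coding gene of 1 member is not reported here. Members and lists were chosen with earlier results of these data known. Python 3.11.15, pandas 2.3.3, numpy 2.4.6 and matplotlib 3.10.9 were used, and the calls were tested on simulated data. The alternatives tried were pseudocount, scaling, level filter, row choice and left-out classes.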

Additional observations from a re-analysis of the deposited data

How the results depend on the processing

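The counts of 12 higher and 40 lower members and the median change of -0.50 were recomputed under each alternative. With a pseudocount of 5, 7 members were higher and 16 lower, with a median of -0.29. The median was -0.76 after rescaling to TPM, -0.29 after median scaling, -0.38 after quantile normalisation and 0 over the 997 genes with no filter. With a filter at 5 FPKM, 25 of 81 members were lower. Over the 91 members of lncRNA biotype, an alternative chosen after seeing the data, 6 were higher and the median was -0.62. Leaving out values of 3 or fewer fragments, also chosen after seeing the data, gave 9 higher and 36 lower. TPM and median scaling moved the median change of coding genes by -0.24 and 0.21. Under the pseudocounts, scalings and the largest-row choice, 0 called members changed sign; median scaling took 12 lower calls away, among them Pvt1, Snhg4, Snhg8, Snhg10 and 2410006H16Rik. No paired analysis was possible because each group has 1 library. Members at low FPKM rest on few fragments, and no setting stands in for a replicate.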

Other observations

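The rule leaves out genes whose symbols begin like those of microRNAs, among them hosts that give rise to microRNAs. Mir17hg, the host of an oncogenic microRNA cluster, stood at 6.82 FPKM (6.06 to 7.59) in the unstimulated library and 1.16 FPKM (0.848 to 1.47) after LPS, 5.90-fold lower (4.44 to 7.83). Mir22hg was at 5.95 FPKM (5.11 to 6.78) and 11.1 FPKM (10.0 to 12.2), 1.87-fold higher (1.58 to 2.22). The intervals are separate for both hosts, and they lie on either side of equal levels.

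A further 41 non-coding rows at or above 2 FPKM matched no name. The size rule put 2 of them higher and 8 lower, beside 9.27% and 13.2% over all named genes of that level. The most abundant of these 10 lies at chr1:162965297-162968668 of mm9, around Snord47. It was at 83.6 FPKM (81.0 to 86.1) and 25.7 FPKM (24.4 to 27.1), 3.25-fold lower (3.06 to 3.45). A row at chr7:108599822-108661341 that contains Mir139 was at 9.04e-05 and 2.42 FPKM.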
